A study of Mus musculus with 9 samples.

Results

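Open chromatin was described at 10 Wnt pathway genes of cochlear progenitors: the ligand genes Wnt5a and Wnt7a, the R-spondin gene Rspo3, the receptor genes Fzd9, Lgr5 and Lgr6, the inhibitor genes Sfrp1 and Axin2, and the transcription factor genes Lef1 and Tcf7. A peak belonged to a gene when its summit lay nearest, within 500 kb, to a start site of that gene among the protein-coding transcripts of GENCODE vM1 on the mouse build mm9. By this rule 353 of 286921 peaks belonged to the 10 genes. Peaks of all lists lying within 100 bp of each other were merged, which gave 101 regions at the 10 genes of 69415 regions in all.

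ATAC-seq marks DNA that a transposase can reach, and it was applied to cells sorted from the embryonic mouse cochlear duct to map the chromatin of its prosensory progenitors. All embryos came from the Sox2-EGFP knock-in strain B6;129S-Sox2tm2Hoch/J, in which EGFP sits in the Sox2 coding region, so EGFP-bearing embryos of every group carried a changed Sox2 allele, heterozygous where zygosity is given, and no treatment is given. Sorting was by EGFP signal. Sox2-EGFP+ cells came from around the brightest mode of the signal and Sox2-EGFP- cells from around the dimmest, while weakly fluorescent cells entered neither sample. Sox2-EGFP+ cells were taken at E12, E14.5 and E16 with 2 samples per stage, and Sox2-EGFP- cells at E14.5 (1 sample, numbered 2) and at E16 (2 samples). Each Sox2-EGFP+ sample was 1 litter of pooled ducts. There was no Sox2-EGFP- sample at E12, so the calls between the cell types used E14.5 and E16 alone, and counts over all 6 Sox2-EGFP+ lists set E12 beside later Sox2-EGFP- samples. The Sox2-EGFP- cells of E16 were collected in parallel with Sox2-EGFP+ cells, and whether equal replicate numbers mark shared litters is not stated. In sorted pools, fewer cells of a type and less open chromatin per cell cannot be told apart.

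The lists held peaks and no reads, and the authors had kept peaks shared with another sample of the same cell type. The lists differed in length. The E12 Sox2-EGFP+ lists held 13817 peaks (replicate 1) and 7577 peaks (replicate 2). The E14.5 Sox2-EGFP+ lists held 66332 and 22962 peaks, and the E16 Sox2-EGFP+ lists 39314 and 65870. For Sox2-EGFP- cells the lengths were 23302 (E14.5), and 23848 and 23899 (E16). The 2 longest lists (E14.5 Sox2-EGFP+ replicate 1 and E16 Sox2-EGFP+ replicate 2) therefore reached ranks that no Sox2-EGFP- list has. A rank places a peak within its own list, and a deep rank in a long list need not be a weak peak: the lowest −log10 q was 1.43 and 1.34 in these 2 lists, and 1.62, 1.34 and 1.66 in the Sox2-EGFP- lists. The cell type tag of 3 E16 samples contradicted their titles and source names (Sox2-EGFP+ replicate 2 and both Sox2-EGFP- replicates), and samples were grouped by title. Both E16 replicates numbered 1 were sequenced in a batch apart from the other samples.

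Wnt ligands bind Frizzled receptors, and in the canonical branch of the pathway this stabilises β-catenin, which enters the nucleus and acts with TCF/LEF factors on target genes. R-spondins bind Lgr receptors and raise the response to Wnt, while Sfrp proteins bind ligands outside the cell and Axin2, itself a target gene, promotes the breakdown of β-catenin. In the cochlea, Wnt signalling is known for its part in the proliferation of prosensory progenitors and in the formation of hair cells, Lgr5 marks a set of progenitors and supporting cells, and Wnt5a is known for its part in the planar polarity of hair cells.

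Regions are named by gene and by the offset of the best summit from the nearest start site, negative upstream and positive downstream. The sequences of 6 regions are shown because these regions separated the cell types by rank, or held TCF/LEF or Sox letters beside such a separation. Each runs 5′ to 3′ on the plus strand of mm9, 100 bases to each side of the summit, and capitals mark the TCF/LEF letters CTTTGAT or CTTTGAA and the Sox letters ACAATGG or ACAAAGG on either strand. The 3 regions at Wnt7a, Fzd9 and Tcf7 ranked higher in Sox2-EGFP+ cells, and the 3 at Axin2 and Lef1 ranked higher in Sox2-EGFP- cells.
Wnt7a +61.7 kb, chr6:91299544-91299744: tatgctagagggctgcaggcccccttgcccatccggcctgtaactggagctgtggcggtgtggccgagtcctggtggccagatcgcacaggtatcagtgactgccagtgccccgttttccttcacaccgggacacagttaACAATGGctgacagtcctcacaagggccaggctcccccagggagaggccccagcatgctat
Fzd9 -2.7 kb, chr5:135729686-135729886: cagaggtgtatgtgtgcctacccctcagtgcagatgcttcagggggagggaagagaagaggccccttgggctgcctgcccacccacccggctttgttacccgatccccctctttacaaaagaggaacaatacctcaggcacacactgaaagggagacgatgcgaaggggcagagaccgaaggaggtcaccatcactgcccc
Tcf7 -14.4 kb, chr11:52110969-52111169: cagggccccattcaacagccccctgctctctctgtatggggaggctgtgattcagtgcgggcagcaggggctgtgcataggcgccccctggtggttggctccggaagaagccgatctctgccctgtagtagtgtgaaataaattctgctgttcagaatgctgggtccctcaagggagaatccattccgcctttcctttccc
Axin2 +38.6 kb, chr11:108823033-108823233: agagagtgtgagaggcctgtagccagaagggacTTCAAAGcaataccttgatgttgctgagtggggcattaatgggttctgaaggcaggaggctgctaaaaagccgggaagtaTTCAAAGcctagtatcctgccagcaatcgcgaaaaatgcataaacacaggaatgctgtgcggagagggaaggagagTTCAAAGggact
Lef1 -56.0 kb, chr3:130757279-130757479: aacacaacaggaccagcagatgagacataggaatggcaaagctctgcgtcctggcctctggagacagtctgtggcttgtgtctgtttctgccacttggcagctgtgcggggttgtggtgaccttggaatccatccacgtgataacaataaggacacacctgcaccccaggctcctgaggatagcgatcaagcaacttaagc
Lef1 -4.5 kb, chr3:130808814-130809014: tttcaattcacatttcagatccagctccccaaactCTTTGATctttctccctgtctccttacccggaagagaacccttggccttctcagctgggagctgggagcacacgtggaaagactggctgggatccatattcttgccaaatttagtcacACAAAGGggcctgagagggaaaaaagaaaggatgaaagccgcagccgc

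The value given for a region is its rank, where rank 1 is the peak with the highest −log10 p of a list. A region without a peak in a list has no rank there, and the best rank it could have is the list length plus 1. A region was called higher in a group when every list of that group had a peak and the worst of those ranks was better than the best rank possible in the other group. For 4 Sox2-EGFP+ against 3 Sox2-EGFP- lists of E14.5 and E16, the smallest two-sided exact permutation p is 0.0571, so no single region could pass 0.05. Every called region has this p by the rule itself, so calls were read against the share of all regions called by the same rule.

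Across the 10 genes, 76 of 101 regions (75.2%) had Sox2-EGFP+ peaks alone, 18 had peaks of both cell types and 7 (6.93%) had Sox2-EGFP- peaks alone. Over all 69415 regions, 65.5% had Sox2-EGFP+ peaks alone and 5.63% had Sox2-EGFP- peaks alone. This presence count followed the length of the lists. Of the 76 regions, 38 had a peak in the 2 longest lists and in no other list, 37.6% of the 101. Of all 68368 regions assigned to a gene 23951 did, a share near this one. With each list shortened to 22962 peaks, the length of the shortest E14.5 or E16 list, 46 regions were left and 21 of them had Sox2-EGFP+ peaks alone, and without the 2 longest lists the counts were 64 and 39. Both of these settings were chosen after seeing the data. At equal length the 10 genes held 24 and 22 peaks in the E14.5 Sox2-EGFP+ lists, 25 and 27 in the E16 Sox2-EGFP+ lists, 26 in the E14.5 Sox2-EGFP- list, and 22 and 25 in the E16 Sox2-EGFP- lists. The cell types overlapped in this count.

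**Figure D1:**
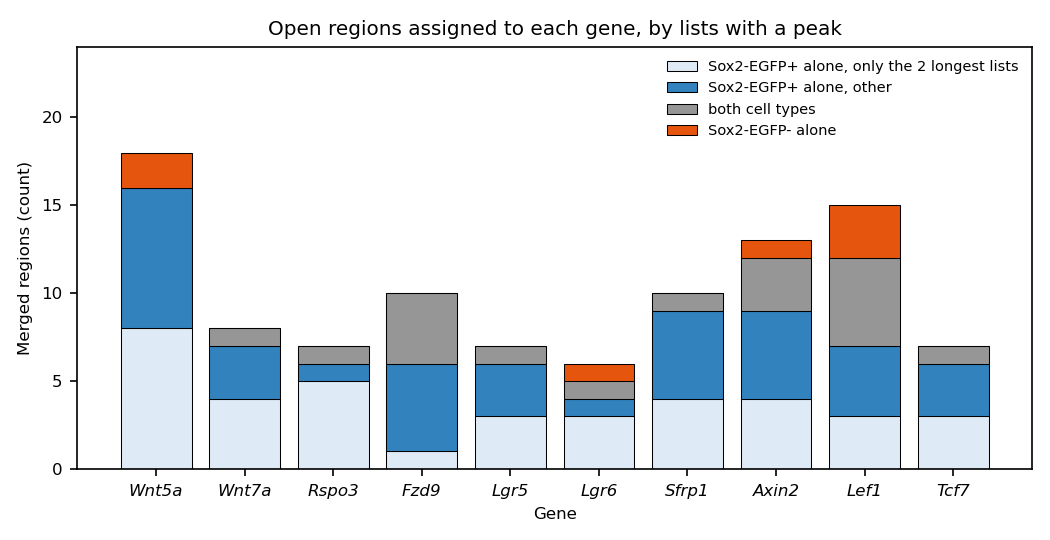
Stacked bars give the number of merged regions (y axis, count) assigned to each of the 10 genes (x axis), divided by the lists that had a peak. The palest part of each bar, 38 regions over the 10 genes, had peaks in the 2 longest Sox2-EGFP+ lists alone, and the highest bar is Wnt5a with 18 regions.

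By rank, 5 of 101 regions were called higher in Sox2-EGFP+ cells (4.95%) against 4.81% of all regions, and 4 were called higher in Sox2-EGFP- cells (3.96%) against 5.91%. Both shares were near those of all regions, so the counts are not a property of the 10 genes, and what follows describes single regions. The Sox2-EGFP+ calls lay at Wnt7a, Fzd9 (2 regions), Tcf7 and Axin2, and the Sox2-EGFP- calls at Lef1 (3 regions) and Axin2. By the rule itself, leaving out a list can hardly remove a call and mostly adds calls, among all regions as among the 101. The Sox2-EGFP+ count went to 9 (8.91%) without E14.5 Sox2-EGFP+ replicate 2, against 7.01% of all regions. The Sox2-EGFP- count went to 9 without the E14.5 Sox2-EGFP- list (against 9.26% of all regions), to 9 without E16 Sox2-EGFP- replicate 1 (8.33%), to 7 without E16 Sox2-EGFP- replicate 2 (8.84%) and to 7 without E16 Sox2-EGFP+ replicate 1 (7.49%). Without both E16 replicates numbered 1, the samples of the separate sequencing batch, it was 11 (10.9%), against 10.03% of all regions. In these settings the shares lay near those of all regions. The Sox2-EGFP- count stayed at 4 (3.96%) without E14.5 Sox2-EGFP+ replicate 2 and without E16 Sox2-EGFP+ replicate 2, against 7.38% and 6.51% of all regions. In that batch each cell type had 1 sample, so it gave no call of its own. Under stricter lists, which can remove a call, most of the 9 were lost. Calls over all regions fell as well. Their shares for Sox2-EGFP+ and Sox2-EGFP- cells were 3.29% and 2.74% with −log10 q of at least 5. Among the 7500 highest peaks they were 3.92% and 3.99%. With −log10 q of at least 5, the calls left were 2 for Sox2-EGFP+ cells (Wnt7a +61.7 kb and Tcf7 -14.4 kb) and 1 for Sox2-EGFP- cells (Lef1 -56.0 kb), so those at Axin2 +38.6 and +62.8 kb, Fzd9 -2.7 and -46.8 kb, and Lef1 -4.5 and -164.2 kb were lost. Among the 7500 highest peaks of each list only Wnt7a +61.7 kb was left, since no other called region ranked within 7500 in every list of the higher group.

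**Figure D2:**
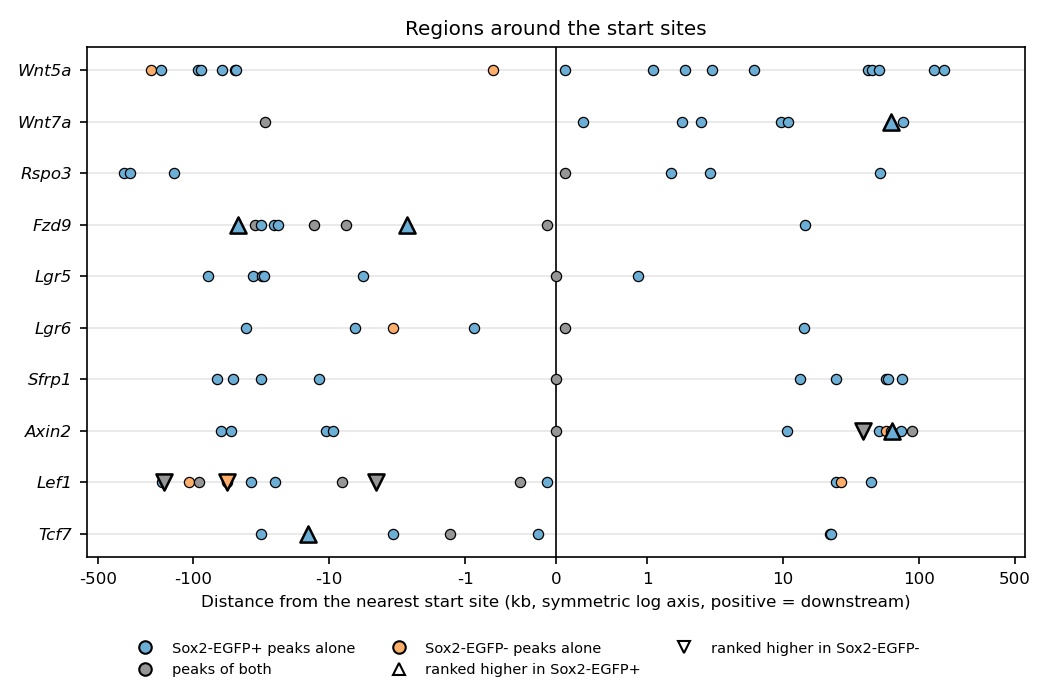
Each symbol is 1 of the 101 regions, placed by distance from the nearest start site (x axis, kb, symmetric log scale) on the line of its gene (y axis). Blue, grey and orange mark regions with Sox2-EGFP+ peaks alone, of both cell types and with Sox2-EGFP- peaks alone, and triangles mark the 5 regions called higher in Sox2-EGFP+ cells (pointing up) and the 4 called higher in Sox2-EGFP- cells (pointing down).

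Wnt5a, which encodes a ligand best known in noncanonical signalling, had 18 regions, more than any other of the 10 genes. The annotation gave 2 start sites for it. Of all 17092 genes with a region, 2.12% had 18 or more. Of the Wnt5a regions, 16 had Sox2-EGFP+ peaks alone, 2 had Sox2-EGFP- peaks alone and none had both. The region at the upstream start site (+0.1 kb, chr14:29317846-29318232) ranked low, at 45211 in E14.5 Sox2-EGFP+ replicate 1 and 34410 in E16 Sox2-EGFP+ replicate 1, with no peak elsewhere. At the other start site a region (-0.7 kb) had peaks in E14.5 Sox2-EGFP- (rank 22192) and E16 Sox2-EGFP- replicate 2 (rank 20218) and in no Sox2-EGFP+ list. Neither start-site region had a peak in both cell types. An intronic region at +6.1 kb, chosen after its values were seen (chr14:29330555-29331188), had peaks in all 4 later Sox2-EGFP+ lists, at ranks 24022, 17576, 25037 and 19533, and in no Sox2-EGFP- list. Of these ranks 2 fell beyond the length of the Sox2-EGFP- lists, so it was not called. No Wnt5a region was called for either cell type, and 8 of the 18 rested on the 2 longest lists alone.

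Wnt7a, which encodes a ligand, had 8 regions, and 1 of them gave the clearest separation among the 101. The region at +61.7 kb (chr6:91299172-91300147), in intergenic sequence downstream of the start site, had a peak in all 6 Sox2-EGFP+ lists and in none of the 3 Sox2-EGFP- lists. Its rank was 2355 and 6513 at E12, 3151 and 3639 at E14.5, and 3547 and 3544 at E16. Every Sox2-EGFP+ rank was far inside the length of the shortest Sox2-EGFP- list, and the groups did not overlap. The fold enrichment over local background was 7.20 and 4.47 at E12, 10.7 and 5.31 at E14.5, and 9.47 and 9.27 at E16. The later samples thus shared a rank band from 3151 to 3639, while the E12 replicates lay on either side of it. A peak in all 6 Sox2-EGFP+ lists and in no Sox2-EGFP- list was found at 0.794% of all regions and at 2 of the 101, this one and a region of Fzd9. Of the settings that could remove it, the call held with −log10 q of at least 5, the 7500 highest peaks, all transcripts, ranking by fold enrichment and all 6 Sox2-EGFP+ lists. Its window, shown above, held 1 Sox match and no TCF/LEF match.

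The other Wnt7a regions did not separate the cell types in this way. The region nearest the start site (+0.3 kb, chr6:91360828-91361976) had peaks in 4 Sox2-EGFP+ lists, at rank 13081 in E12 replicate 1, 31455 in E14.5 replicate 1, and 15245 and 26788 at E16, and in no Sox2-EGFP- list. A region at -29.6 kb, also chosen after its values were seen (chr6:91390557-91391659), ranked 8153, 7688 and 5950 in the Sox2-EGFP- lists, and 9236 in E12 replicate 1, 5388 in E14.5 replicate 1, and 11275 and 13730 at E16 in Sox2-EGFP+ cells. Its ranks overlapped between the cell types.

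Rspo3 encodes an R-spondin, a secreted ligand of Lgr receptors. Of its 7 regions, 5 rested on the 2 longest lists alone. The start-site region (+0.1 kb, chr10:29255271-29256089) had a peak in every list except E12 replicate 2. Its ranks were 14138 and 13005 in E14.5 Sox2-EGFP+ cells, 7894 and 13135 in E16 Sox2-EGFP+ cells, 11412 in E14.5 Sox2-EGFP- cells, and 11025 and 8149 in E16 Sox2-EGFP- cells. The cell types overlapped, and no Rspo3 region was called.

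Fzd9, which encodes a Frizzled receptor, had 10 regions and the most calls of the receptor genes. At -2.7 kb (chr5:135729423-135730247) a region had peaks in all 6 Sox2-EGFP+ lists and in no Sox2-EGFP- list. It ranked 5786 and 4219 at E12, 11735 and 19692 at E14.5, and 19773 and 17513 at E16. The E12 ranks were the best by number, in the shortest lists, so they need not mean stronger peaks. The −log10 p of this region was 9.45 and 8.15 at E12, 51.7 and 6.31 at E14.5, and 13.7 and 17.0 at E16. The ranks after E12 came nearer the end of the Sox2-EGFP- lists. This was also the only one of 94 regions called higher at E12, against 1.62% of all regions with a Sox2-EGFP+ peak. Ranked by fold enrichment instead of −log10 p, it was no longer called for Sox2-EGFP+ cells and was still called higher at E12. Its fold enrichment was 5.03 and 5.04 at E12, 6.26 and 2.84 at E14.5, and 3.83 and 4.77 at E16.

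A further Fzd9 region at -46.8 kb (chr5:135773413-135774108), within an intron of Fkbp6, was called higher in Sox2-EGFP+ cells at ranks 13946 and 17648 at E14.5 and 15909 and 10532 at E16, with no peak at E12 or in Sox2-EGFP- cells. The strongest Fzd9 region after E12, at -13.0 kb (chr5:135739728-135740776), was open in both cell types. Its rank was 3881 and 1273 in E14.5 Sox2-EGFP+ cells, 3827 and 3625 in E16 Sox2-EGFP+ cells, 1443 in E14.5 Sox2-EGFP- cells, and 4067 and 3856 in E16 Sox2-EGFP- cells. At E12 it ranked 11233 in replicate 1 and had no peak in replicate 2. It was the only one of 94 regions called higher after E12, against 1.59% of all regions. The Fzd9 start-site region (-0.1 kb, chr5:135726434-135727398) had peaks in all 3 Sox2-EGFP- lists at ranks 15090, 5640 and 7949, and in 3 Sox2-EGFP+ lists at ranks 21979 (E14.5 replicate 1), 11127 and 12216 (both E16).

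Lgr5, which encodes an R-spondin receptor, had 7 regions, 6 of them with Sox2-EGFP+ peaks alone. Its start-site region (chr10:115023915-115025279) had a peak in all 9 lists, 1 of only 2 such regions among the 101 (1.98%, against 7.41% of all regions assigned to a gene). It ranked 3196 and 5388 at E12, 7276 and 2609 at E14.5, and 8858 and 5549 at E16 in Sox2-EGFP+ cells, and 9064, 10571 and 4677 in Sox2-EGFP- cells. The marker gene's start site was thus open by peak in both gates, and its ranks overlapped. Upstream, the region at -36.3 kb (chr10:115060976-115061669) had peaks at ranks 18777 in E14.5 replicate 1, and 21834 and 21519 at E16, and none in E14.5 replicate 2 or in Sox2-EGFP- cells. It was named after its values were seen, since it is 1 of the regions that would be called without E14.5 Sox2-EGFP+ replicate 2. Lgr6, which encodes a related receptor, had 6 regions and no peak at E12. Its start-site region (+0.1 kb, chr1:137001483-137002171), in an annotated untranslated region, ranked 13375, 11131 and 8627 in Sox2-EGFP- cells, 13981 in E14.5 Sox2-EGFP+ replicate 1, and 13185 and 13324 in E16 Sox2-EGFP+ cells. No region of Lgr5 or Lgr6 was called for a cell type.

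**Figure D3:**
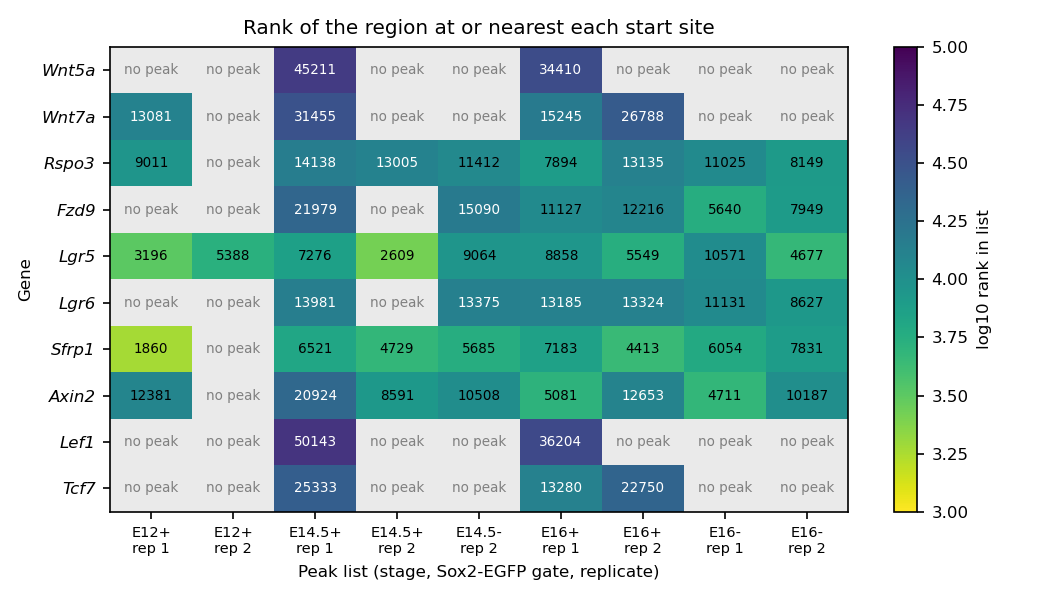
Each cell gives the rank (color, log10 scale, and printed number) of the region at or nearest a start site for 1 gene (y axis) in 1 of the 9 peak lists (x axis), and grey cells had no peak. Lgr5 has a rank in all 9 lists, while Wnt5a, Wnt7a, Lef1 and Tcf7 have none in the Sox2-EGFP- lists.

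Sfrp1, which encodes a secreted inhibitor, had 10 regions, 9 of them with Sox2-EGFP+ peaks alone. The start-site region (chr8:24521606-24522939) was the strongest start-site region of the 10 genes in E12 Sox2-EGFP+ replicate 1 (rank 1860), and E12 replicate 2 had no peak there. It ranked 6521 and 4729 at E14.5 and 7183 and 4413 at E16 in Sox2-EGFP+ cells, and 5685, 6054 and 7831 in Sox2-EGFP- cells. These ranks overlapped. The other 9 regions had no Sox2-EGFP- peak, 4 of them rested on the 2 longest lists alone, and none was called.

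Axin2, a target gene whose product restrains the pathway, had 13 regions and was the only one of the 10 genes with a call in each direction. The region at +38.6 kb (chr11:108822706-108823319) ranked 13477, 19977 and 22547 in the Sox2-EGFP- lists, and in Sox2-EGFP+ cells it had a peak only in the 2 longest lists, at ranks 58739 and 52029. Its rank of 22547 lay just inside 22962, the length of the shortest later Sox2-EGFP+ list. The fold enrichment was 5.19 and 4.69 in the 2 longest lists and 4.13, 4.57 and 3.78 in Sox2-EGFP- cells. Ranked by fold enrichment within each list, the region was still called higher in Sox2-EGFP- cells. The window of this region, shown above, held 3 TCF/LEF matches, the most of any of the 101 windows. The region at +62.8 kb (chr11:108846900-108847592) had no Sox2-EGFP- peak and ranked 14868 and 22779 at E14.5, 17067 and 19361 at E16, and 6330 in E12 replicate 1. Its rank of 22779 lay just inside 23302, the length of the shortest Sox2-EGFP- list, and with start sites of all transcripts considered it was not assigned to Axin2.

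The Axin2 start-site region (chr11:108781420-108783281) had peaks in every list except E12 replicate 2, at ranks 20924 and 8591 (E14.5) and 5081 and 12653 (E16) in Sox2-EGFP+ cells and 10508, 4711 and 10187 in Sox2-EGFP- cells. It did not separate the cell types. An intergenic region at +88.7 kb (chr11:108872877-108873492) ranked between 1 and 5 in all 9 lists, with a fold enrichment of up to 21.3. Whether reads from sequence elsewhere contribute to this peak was not tested, and it is given here as the top-ranked region of the 101 chosen after its values were seen, and not as a property of Axin2.

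Lef1 encodes a factor that acts with β-catenin on target genes. With 15 regions it was the gene with the most calls for Sox2-EGFP- cells, and it had no peak in either E12 list. The region at -56.0 kb (chr3:130757193-130757769) ranked 10906, 13863 and 9228 in the Sox2-EGFP- lists and had no peak in any Sox2-EGFP+ list, the 2 longest included. A separate region nearby, at -56.7 kb (chr3:130756262-130756848), was named after its values were seen. It had peaks in the 2 longest lists alone, at ranks 46528 and 45037, and was not called. At -4.5 kb (chr3:130808768-130809298) the ranks were 18850, 11457 and 13700 in Sox2-EGFP- cells and 35288, 26329 and 53045 in E14.5 replicate 1 and both E16 replicates of Sox2-EGFP+ cells, with no peak in E14.5 replicate 2. The fold enrichment values overlapped, at 2.71, 4.80 and 3.69 in Sox2-EGFP- cells and 5.48, 3.94 and 3.48 in Sox2-EGFP+ cells. Ranked by fold enrichment within each list, the region at -4.5 kb was still called higher in Sox2-EGFP- cells. Its window, shown above, held 1 TCF/LEF and 1 Sox match. The third called region, at -164.2 kb (chr3:130648733-130649453), ranked 16078, 17197 and 12171 in Sox2-EGFP- cells and 18549, 29511 and 17278 in Sox2-EGFP+ cells. The nearest ranks of the cell types were 17197 and 17278, and by fold enrichment the order was lost, with 10.4, 4.80 and 7.84 in Sox2-EGFP+ cells against 4.02, 5.29 and 5.44 in Sox2-EGFP- cells. With start sites of all transcripts considered, the regions at -164.2 kb and -56.0 kb were not assigned to Lef1.

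**Figure D4:**
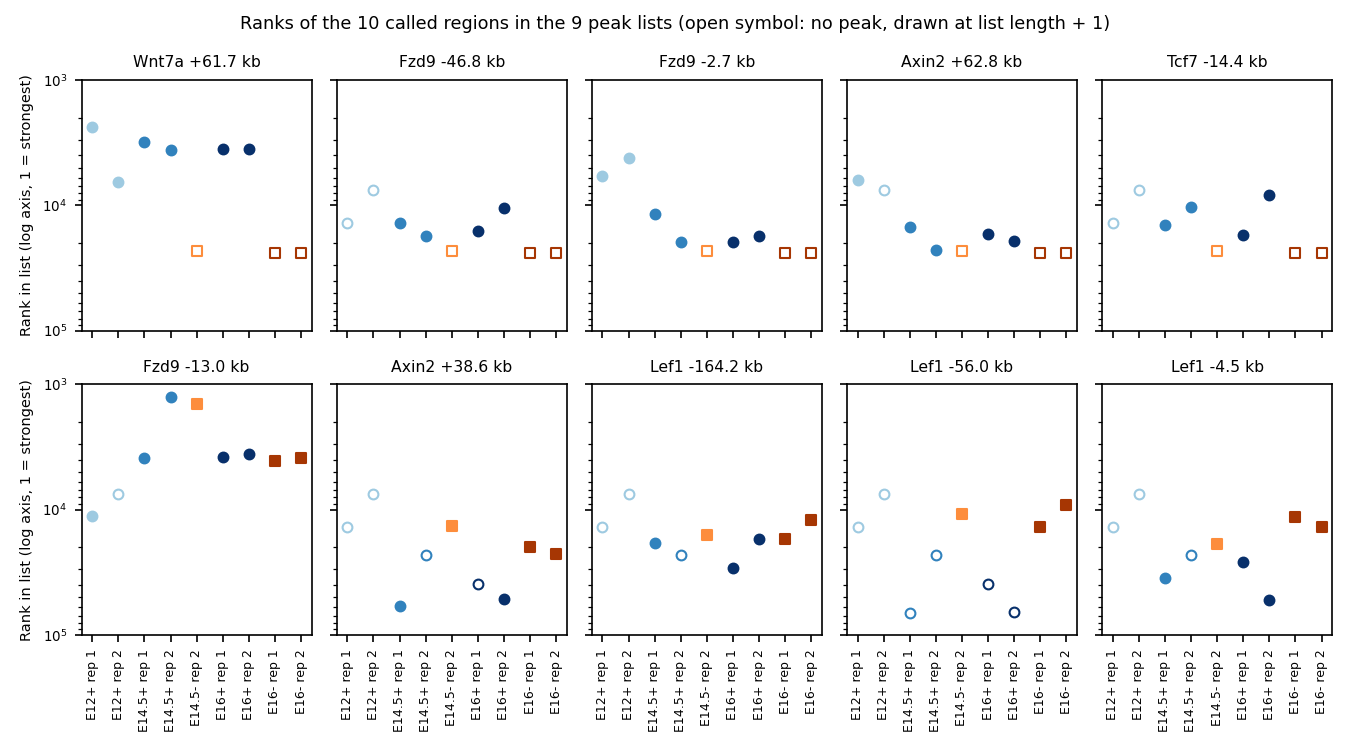
Each panel shows the rank of 1 called region (y axis, log scale, best at the top) in the 9 peak lists (x axis), with circles for Sox2-EGFP+, squares for Sox2-EGFP- and open symbols for lists without a peak, drawn at the list length plus 1. At Wnt7a +61.7 kb the 6 Sox2-EGFP+ ranks sit between 2355 and 6513 and no Sox2-EGFP- list has a peak, while at Lef1 -56.0 kb only the 3 Sox2-EGFP- lists have one.

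In lists of equal length, Lef1 held 7, 5 and 8 peaks in the Sox2-EGFP- lists and 2, 0, 1 and 2 in the Sox2-EGFP+ lists of E14.5 and E16. It was the only one of the 10 genes with more peaks in all 3 Sox2-EGFP- lists than in all 4 Sox2-EGFP+ lists, against 5.25% of 15633 genes. None of the 10 genes had more in all 4 Sox2-EGFP+ lists, against 6.6% of genes. This count per gene was chosen after seeing the data. In the full lists, Lef1 held 7, 5 and 8 peaks in Sox2-EGFP- cells and 12, 0, 9 and 10 in later Sox2-EGFP+ cells. Of its 15 regions, 7 had Sox2-EGFP+ peaks alone. At the Lef1 start sites themselves, a region at -0.4 kb (chr3:130814566-130815558) ranked 17725 in E14.5 Sox2-EGFP+ replicate 1, 11425 and 20888 in E16 Sox2-EGFP+ cells, and 16571 and 15461 in E16 Sox2-EGFP- cells. These ranks overlapped, and the 3 called regions lay upstream. The count per gene also held regions without a call, named after their values were seen. Those at -106.5 kb (ranks 16814 and 19335), -90.8 kb (17506 and 19622) and -8.1 kb (14857 and 21038) had peaks in E14.5 Sox2-EGFP- cells and in E16 Sox2-EGFP- replicate 2. Of these, -90.8 kb also had Sox2-EGFP+ peaks at ranks 31015, 38823 and 43006, and -8.1 kb at 35640 and 27384. The region at -0.4 kb and an intronic region at +26.7 kb (22260 and 15403) had Sox2-EGFP- peaks at E16 alone. A second region at the start (-0.1 kb, chr3:130813107-130813460) had peaks in 2 Sox2-EGFP+ lists at ranks 50143 and 36204.

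**Figure D5:**
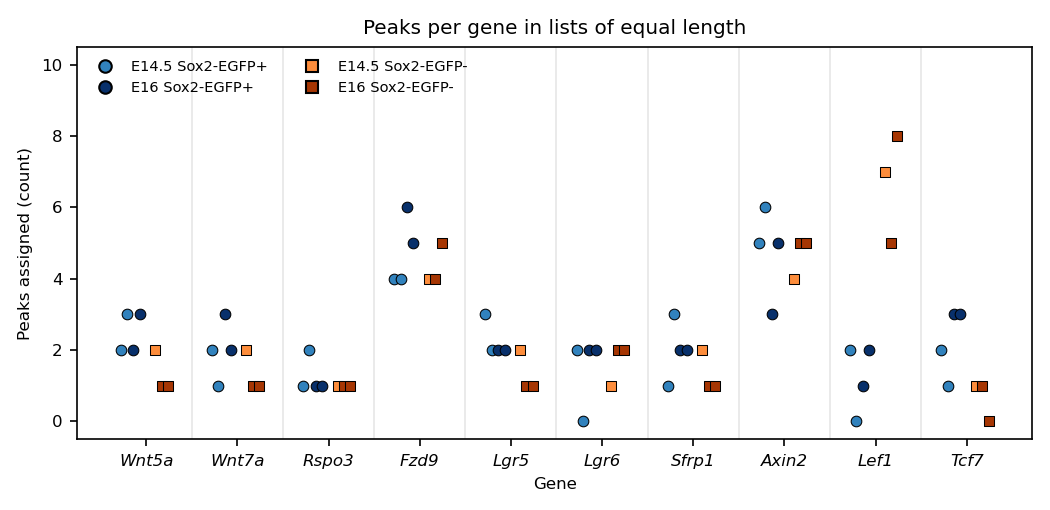
Each symbol is the number of peaks (y axis, count) assigned to 1 gene (x axis) in 1 of the 7 lists of E14.5 and E16, each shortened to its 22962 highest peaks, with circles for Sox2-EGFP+ and squares for Sox2-EGFP-. Lef1 has 5 to 8 peaks in the Sox2-EGFP- lists and 0 to 2 in the Sox2-EGFP+ lists, while the cell types overlap at the other 9 genes.

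Tcf7 encodes a further TCF/LEF factor. It had 7 regions, 6 of them with Sox2-EGFP+ peaks alone, and no peak at E12. The region at -14.4 kb (chr11:52110851-52111473) was called higher in Sox2-EGFP+ cells, at ranks 14376 and 10365 at E14.5 and 17166 and 8298 at E16, with no Sox2-EGFP- peak. All 4 ranks were well inside the Sox2-EGFP- lists. The start-site region (-0.2 kb, chr11:52096246-52097092) had peaks at ranks 25333 in E14.5 replicate 1, and 13280 and 22750 at E16, and none in Sox2-EGFP- cells. It held 1 TCF/LEF match.

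Between stages within Sox2-EGFP+ cells, the length of the lists set what could be seen. Of the 101 regions, 14 had a peak at E12 (13.9%, against 20.3% of all regions assigned to a gene), and only 4 had one in E12 replicate 2. Without E12 replicate 2, 8 regions ranked higher at E12 (8.51%, against 7.79% of all regions) and 1 after E12 (1.06%, against 5.44%). Without E12 replicate 1, these counts were 1 (1.06%, against 5.22% of all regions) and 4 (4.26%, against 2.87%). Leaving out E14.5 Sox2-EGFP+ replicate 2 gave 2 regions higher at E12 (2.13%, against 2.17% of all regions), and leaving out E16 Sox2-EGFP+ replicate 1, alone or with the Sox2-EGFP- sample of its batch, gave 2 regions higher after E12 (2.13%, against 2.04% of all regions). Between E14.5 and E16, a comparison added after seeing the data, 1 of 94 regions ranked higher at E14.5 (Wnt5a +50.6 kb) against 6.08% of all regions, and 5 ranked higher at E16 against 6.12%. These 5 regions lay at Fzd9 (2), Tcf7 (2) and Lgr6 (1), and in each of them E14.5 replicate 2 had no peak. The smallest two-sided exact permutation p for E12 against the later stages is 0.133, so no region could pass 0.05.

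By position, 14 of the 101 regions lay within 1 kb of a start site (13.9%, against 21.9% of all regions assigned to a gene) and 58 lay at 10 to 100 kb (57.4%, against 46.0%). Within 1 kb, 6 of 14 regions had Sox2-EGFP+ peaks alone (42.9%, against 18.2% of such regions), and beyond 1 kb 70 of 87 did (80.5%, against 78.5%). None of these 6 was called for a cell type. Those at Lgr5 +0.9 kb, Lgr6 -0.9 kb, Lef1 -0.1 kb and Wnt5a +0.1 kb had peaks only at ranks that no Sox2-EGFP- list has. Those at Tcf7 -0.2 kb and Wnt7a +0.3 kb also had ranks inside the length of the Sox2-EGFP- lists. The summits of 54 regions were intergenic, 32 lay in introns, 11 within a promoter from 1000 bp before to 100 bp after a start site, 2 in coding exons and 2 in untranslated regions. The median width was 519 bp, against 578 bp over all regions assigned to a gene, and the median GC content of the windows was 53.7% in both.

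The TCF/LEF letters were found in 12 of 101 windows of 201 bases (11.9%), against 6.66% of all windows, and beyond 1 kb from a start site in 9 of 87 (10.3%) against 7.78%. These windows lay at Lef1 (3), Wnt5a (3), Axin2 (2), Tcf7 (2), Lgr5 (1) and Wnt7a (1). None of the 5 regions called higher in Sox2-EGFP+ cells held them, and 2 of the 4 called higher in Sox2-EGFP- cells did. No share over all called regions is set beside these counts, and they are too few to compare the cell types. The Sox letters were in 8 windows (7.92%, against 12.2%). The Tead letters GGAATG or GGAATT were in 21 (20.8%, against 19.3%) and the Gata letters AGATAA in 9 (8.91%, against 8.18%), on either strand. A match describes the letters of a window and not a bound site.

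Loci of marker genes were read by the same rule. At 10 prosensory genes, 12 of 144 regions (8.33%) were called higher in Sox2-EGFP+ cells and 5 (3.47%) in Sox2-EGFP- cells. The shares of all regions were 4.81% and 5.91%. Sox2 itself, on which the sort rests, had 34 regions, 30 of them with Sox2-EGFP+ peaks alone, and 4 Sox2-EGFP+ calls. At 8 mesenchyme genes, 19 of 63 regions (30.2%) were called higher in Sox2-EGFP- cells and 2 (3.17%) in Sox2-EGFP+ cells. Over all regions, 5.91% and 4.81% were called in these directions. Tbx18 gave 5 of its 9 regions and Prrx1 all 3. Pdgfra gave 1 Sox2-EGFP+ call and no Sox2-EGFP- call, and Tbx15 gave no call in 8 regions. Foxc1 gave 4 Sox2-EGFP- calls and 1 Sox2-EGFP+ call in 27 regions. Among the 7500 highest peaks, the mesenchyme loci had 4, 5 and 4 open regions in the Sox2-EGFP- lists, 0, 1, 0 and 1 in the later Sox2-EGFP+ lists, and 0 and 2 at E12. At 8 endothelial genes, 7 of 50 regions (14%) were called higher in Sox2-EGFP- cells, against 5.91% of all regions, and none in Sox2-EGFP+ cells. Tie1 had no region. Cdh5 had 17 regions and 1 of these calls. Among the 7500 highest peaks, the endothelial loci had 3, 2 and 2 open regions in the Sox2-EGFP- lists, 1 in each later Sox2-EGFP+ list, and 1 and 3 at E12. The Sox2-EGFP- lists thus held open chromatin at mesenchyme and endothelial genes, and so did the Sox2-EGFP+ lists. Of the mesenchyme regions, 47.6% had Sox2-EGFP+ peaks alone and 23.8% Sox2-EGFP- peaks alone, and of the endothelial regions 62% and 22%. Over all regions, these presence shares were 65.5% and 5.63%. The part of such cells in the Lef1 and Axin2 calls was not tested.

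In the remaining lists, the counts of calls are too low to read against the shares of all regions. At 8 macrophage genes, with Spi1 matched by its older symbol Sfpi1, 1 of 12 regions was called for Sox2-EGFP- cells and none for Sox2-EGFP+ cells, and Itgam had no region. Schwann and other glial genes gave 1 Sox2-EGFP+ call and no Sox2-EGFP- call in 37 regions, otic neuron genes 2 of each in 36 regions, and nonsensory epithelial genes 3 Sox2-EGFP+ calls and 1 Sox2-EGFP- call in 57 regions.

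Of 79 other Wnt pathway genes with 625 regions, 24 genes had 38 regions called higher in Sox2-EGFP+ cells (6.08%, against 4.81% of all regions) and 31 genes had 53 regions called higher in Sox2-EGFP- cells (8.48%, against 5.91%). Among 572 regions with a Sox2-EGFP+ peak, 4 were called higher at E12 (0.699%, against 1.62% of all regions) and 2 after E12 (0.350%, against 1.59%). The called regions of best mean rank included 1 at Apc (-88.2 kb), a gene of the β-catenin destruction complex, with ranks of 1262 and 3042 at E12, 768 and 1485 at E14.5, and 4801 and 1718 at E16 and no Sox2-EGFP- peak. At Dkk3 (-11.3 kb), a Dickkopf family gene, the later Sox2-EGFP+ ranks were 2869, 2369, 5363 and 3582, again with no Sox2-EGFP- peak. At Tle3 (+29.9 kb), a corepressor gene, they were 2852, 3511, 3507 and 2429, while the E16 Sox2-EGFP- ranks were 11970 and 15870, and this region was also called higher after E12. Dkk3 also had a region called higher in Sox2-EGFP- cells (-21.3 kb), at Sox2-EGFP- ranks of 10029, 10136 and 7161.

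Other pathway loci ranked higher in Sox2-EGFP- cells or at E12. At the start site of Fzd7 (-0.1 kb), a Frizzled gene, the Sox2-EGFP- ranks were 5311, 2884 and 1992 and the later Sox2-EGFP+ ranks 12663, 8990, 6842 and 5809. A further Fzd7 region, at -32.8 kb, was called higher in Sox2-EGFP+ cells. In an intron of Wls (+45.7 kb), whose product carries Wnt ligands to the cell surface, the Sox2-EGFP- ranks were 4225, 3700 and 4725, against 26106, 32479 and 31198 in the 3 later Sox2-EGFP+ lists with a peak. At E12 the higher calls were Fzd4 (-0.1 kb, ranks 919 and 316), Wnt7b (+5.0 kb, 593 and 2914), Kremen1 (-2.0 kb, 1333 and 2532) and Tcf7l2 (-185.4 kb, 2708 and 2469). These ranks come from the shortest lists. The later Sox2-EGFP+ ranks were 13281, 2393, 4302 and 5972 at Fzd4 and 3766, 4615, 12548 and 6210 at Tcf7l2. The Sox2-EGFP- ranks were 4318, 2335 and 7346 at Fzd4 and 4490, 7268 and 2208 at Tcf7l2. The Tcf7l2 region lay in an intron of Vti1a. The Wnt7b and Kremen1 regions also had later Sox2-EGFP+ peaks and no Sox2-EGFP- peak. Their later ranks were 9926, 9065, 7438 and 9772 (Wnt7b) and 10673, 6340, 11929 and 12660 (Kremen1). Between the cell types, Wnt7b, Kremen1 and Tcf7l2 each had regions called in both directions. Axin1 (-0.1 kb), whose start-site region ranked 1752 and 1317 at E12, was called higher after E12 at ranks 533 and 412 at E14.5 and 975 and 524 at E16.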

How the data were processed

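ATAC-seq peak lists of 9 samples were used. Trim Galore, Bowtie2 (mm9), Picard, SAMtools, MACS2, BEDOPS and bedtools (versions not given) are the tools of the authors. The authors called peaks in each sample, removed those in artefact regions and kept those found again in a further sample of that cell type. The deposited columns are the fold enrichment (a ratio to local background), −log10 p, −log10 q and an integer score, which was not used here. Read depth per sample is not in the lists. The supplement of the study gives reads and the percentage of reads in peaks for each sample, which did not enter the ranks. In it the E12 samples had the fewest reads. E14.5 Sox2-EGFP+ replicate 1 had the highest percentage of reads in peaks. E14.5 Sox2-EGFP+ replicate 2 had a lower percentage than both E16 Sox2-EGFP+ samples, with more reads than either. The calls may therefore depend on sample quality as well as on list length, which was not tested. Members and gene lists were chosen with earlier results of these data known. Ranks, merging and calls were computed with Python 3.11.15 and NumPy 2.4.6, exact two-sided permutation tests with SciPy 1.17.1, and figures with matplotlib 3.10.9. The code was tested on simulated data. Named regions were those at or nearest each start site, those called (up to 3 per gene and direction), those in all 6 Sox2-EGFP+ and no Sox2-EGFP- list, and up to 10 pathway genes of best mean rank; others were named after their values were seen. Alternatives changed the −log10 q, list length, merging, overlap, distance limit, transcripts, ranking and samples. The lists give no reads, so the count test of the study was not run. The result for 1 of the planned motifs is not reported here.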

Additional observations from a re-analysis of the deposited data

Results flagged for a closer look

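In 25 sets of values over the 4 later or all 6 Sox2-EGFP+ lists, 3 had a sample far from the others. The measure was Dixon's Q, which by chance flags about 1 in 20 sets of independent normal values. Ranks need not be normal, and some regions were examined over both the 4 and the 6 lists. That rate need not hold here. At Axin2 -61.9 kb, within an intron of Ccdc46, E16 replicate 1 ranked 38697, while the other later lists ranked it 18010, 14074 and 14418. At Fzd9 -13.0 kb, E14.5 replicate 2 ranked 1273 against 3625 to 3881 in the other later lists. At Wnt7a +61.7 kb, E12 replicate 2 ranked 6513 against 2355 to 3639 in the other 5 Sox2-EGFP+ lists. The 3 values belong to 3 different samples. No region of the 10 genes was ordered one way between the cell types at E14.5 and the other way at E16, against 949 of 69412 regions (1.37%), a share at which 0 of 101 says little.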

How the results depend on the processing

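The 101 regions and the 76 with Sox2-EGFP+ peaks alone were unchanged with a merging distance of 0 bp. They were 98 and 74 with −log10 q of at least 5, 91 and 69 with the 100 kb limit, and 80 and 63 with all transcripts. They changed most with the length of the lists: with the 7500 highest peaks of each list they were 11 and 4, with lists up to the length of the shortest later list 46 and 21, and without the 2 longest lists 64 and 39 (the last 2 settings were chosen after seeing the data). The overlap of at least 50% was void, since a merged region holds each peak whole, and ranking by fold enrichment cannot change these counts.

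The calls were few, so small changes moved them. Ranked by fold enrichment, 4 regions were higher in Sox2-EGFP+ cells and 6 in Sox2-EGFP- cells, against 3.82% and 6.45% of all regions. With −log10 q of at least 5, 2 regions ranked higher in Sox2-EGFP+ cells (Wnt7a +61.7 kb and Tcf7 -14.4 kb), 1 in Sox2-EGFP- cells (Lef1 -56.0 kb), 0 at E12 and 0 after E12, against 3.29%, 2.74%, 0.855% and 0.655% of all regions. With the 7500 highest peaks, the cell type calls were 1 and 0, against 3.92% and 3.99%. With all transcripts 2 of 80 regions ranked higher in Sox2-EGFP- cells, against 5.91%. Without both E16 replicates numbered 1, 11 ranked higher in Sox2-EGFP- cells and 2 after E12. With all 6 Sox2-EGFP+ lists against 3, 2 ranked higher in Sox2-EGFP+ cells and 0 in Sox2-EGFP- cells, against 1.09% and 0.496%, where a Sox2-EGFP- rank must beat the length of the shortest E12 list. Apart from what the settings themselves remove, the cause was not tested.

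Leaving out 1 list at a time gave 101 to 102 regions, 76 to 77 with Sox2-EGFP+ peaks alone, 5 to 9 higher in Sox2-EGFP+ cells, 4 to 9 higher in Sox2-EGFP- cells, 1 to 8 higher at E12 and 1 to 4 higher after E12. Leaving out a list loosens the rule for calls, so the lower ends of the call ranges are the main counts by construction. With the replicate number as a block (3 pairs of the same stage and number), 6 regions ranked higher in Sox2-EGFP+ cells in all pairs and 8 in Sox2-EGFP- cells, against 7.00% and 9.83% of all regions. At E16 both cell types were collected in parallel, but the numbers are not stated to mark shared litters. In 16414 regions with a peak in all 4 E16 lists, the deviations of same-numbered samples correlated (Pearson r 0.210, across regions, which are not replicates), and the separate sequencing batch of the samples numbered 1 cannot be told apart from a pairing.

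The lists hold no reads and show only presence above each list's own threshold, so a region without a peak was not taken as closed, above all at E12. Groups of 2 to 4 samples cannot reach a permutation p of 0.05 for the main comparisons. The nearest start site need not be the gene that a region acts on.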
